A study of Mus musculus with 2 samples.

Results

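The genes described here are 9 transcriptional regulators at the output of the circadian clock, taken by symbol from the 37315 gene identifiers counted in mouse lung: the PAR-bZIP activators Dbp, Tef and Hlf, their competitor Nfil3, the REV-ERB receptors Nr1d1 and Nr1d2, and the repressors Ciart, Bhlhe40 and Bhlhe41. Each symbol matched 1 identifier, and all 9 were measured in both libraries. RNA was sequenced from lungs of C57BL/6 mice, an inbred strain, in 1 control library and in 1 library from mice exposed to PM2.5, airborne particles small enough to reach the alveoli. No genotype or other agent is labelled for either group. The labels give no sex, age, dose, route, number of animals per library or time of day at which the lungs were taken, and both titles carry the number 12 before a W that is not spelled out. The libraries held 62788045 (control) and 57435027 (PM2.5) counts. Each group is 1 library, so the differences describe these libraries and no p-value can be given.

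In mammalian cells the activators CLOCK and BMAL1 bind E-box elements and drive the genes of their own repressors together with a layer of output regulators. The PAR-bZIP proteins then act through D-box elements, where NFIL3 (E4BP4) represses the genes they activate. The REV-ERB receptors, which bind haem, repress genes carrying ROR elements, among them Arntl (the gene of BMAL1), Npas2 and Nfil3. CIART (CHRONO), BHLHE40 (DEC1) and BHLHE41 (DEC2) repress E-box driven transcription. In mouse tissues Arntl, Npas2 and Nfil3 peak at about the opposite phase of the day to Dbp, Nr1d1 and Ciart, and the lung is among the organs with a strong clock.

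Of the 9 genes, 8 had a higher level in the PM2.5 library and 1, Nfil3, a lower one. Ciart was 5.23-fold higher, Dbp 2.44-fold and Bhlhe41 2.15-fold, whereas Nfil3 was 2.81-fold lower. The REV-ERB genes Nr1d2 and Nr1d1 were 1.80-fold and 1.64-fold higher, and Bhlhe40 1.498-fold. Tef stood at 1.24-fold, and the ratio of Hlf, at 1.03, was within counting error of equality. Levels are in CPM, counts relative to the scaled size of each library, and ratios are PM2.5 over control with an exact 95% interval that covers counting error only.

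A call required a ratio of 2-fold or beyond, in either direction, whose interval excluded equality, and a mean level of 1 CPM or above, which all 9 genes reached in each library. Ciart, Dbp and Bhlhe41 were called higher and Nfil3 lower, which is 3 of 9 and 1 of 9. Over all 14518 genes tested, 7.25% (1053) were called higher and 6.04% (877) lower by the same rule. Scaled by library totals these counts became 1541 and 444, and by the upper quartile 1297 and 578. At a size of 1.5-fold, 5 of the 9 were higher and 1 lower, beside 14.9% and 19.1% of all genes tested. Bhlhe40, at a ratio of 1.498, fell just short of that size. The median log2 ratio of the 9 genes was 0.71, and that of all genes tested was -0.09.

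**Figure D1:**
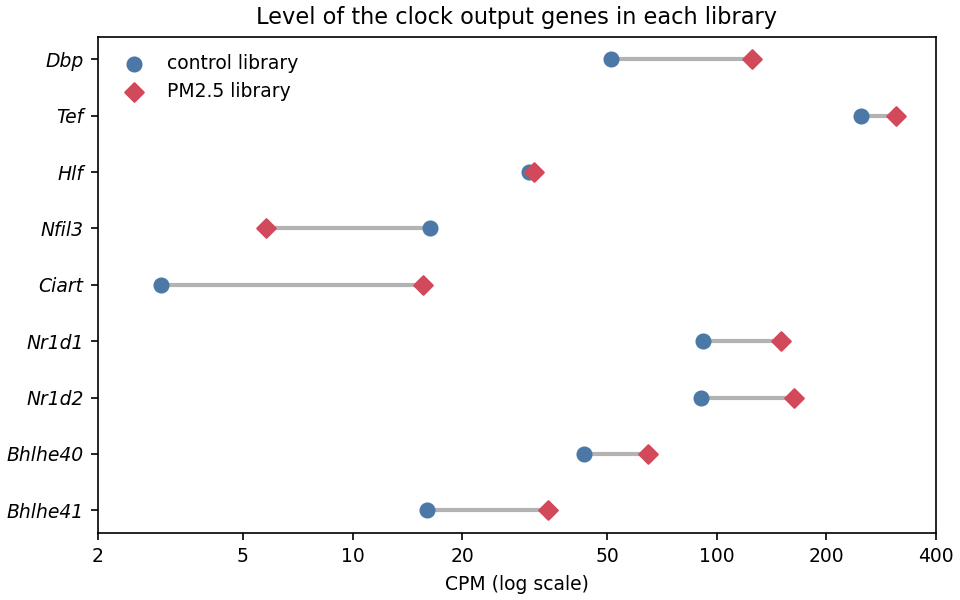
Level of each of the 9 genes in CPM (log axis), with a circle for the control library, a diamond for the PM2.5 library and a bar joining them. Ciart has the widest gap, from 2.98 to 15.6 CPM, Nfil3 alone runs the other way, from 16.3 to 5.79 CPM, and the symbols of Hlf nearly coincide at 30.5 and 31.5 CPM.

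Dbp encodes the D-box binding protein, a PAR-bZIP activator whose transcript swings widely over the day in most organs. The gene (ENSMUSG00000059824, GRCm38 chromosome 7, 45705088 to 45710203, plus strand, protein-coding) was counted 2978 times in the control and 7788 times in the PM2.5 library, or 51.4 and 125 CPM. The level was thus 2.44-fold higher in the PM2.5 library (2.34 to 2.54). Of the 14518 genes tested, 721 (4.97%) had a higher ratio than Dbp. Exons of Sphk2 on the opposite strand overlap 539 bases, or 18.0%, of the exonic length of Dbp. Sphk2 had 2425 and 2000 counts, and because the strand setting of the counting is not given, it is not known how reads over the shared bases were counted.

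Tef (thyrotroph embryonic factor) and Hlf (hepatic leukaemia factor), the other PAR-bZIP activators, differed less between the libraries. Tef (ENSMUSG00000022389, chromosome 15, 81802421 to 81826863, plus strand) was the most abundant of the 9 in CPM, with 14481 counts in the control and 19269 in the PM2.5 library, or 249.8 and 309.8 CPM. Its ratio of 1.24 (1.21 to 1.27) excluded equality by counting error but met neither size. Hlf (ENSMUSG00000003949, chromosome 11, 90336536 to 90390895, minus strand) had 1767 and 1961 counts, or 30.5 and 31.5 CPM, with a ratio of 1.03 (0.969 to 1.10). The activators therefore did not differ alike: the ratio of Dbp to Tef counts was 0.206 in the control and 0.404 in the PM2.5 library, an odds ratio of 1.97 (1.87 to 2.06). For Dbp to Hlf the odds ratio was 2.36 (2.18 to 2.55). Such ratios of genes within a library do not depend on how the libraries are scaled. They do not cancel differences that go with gene length. Genes of the exonic length of Dbp and of Tef had median log2 ratios of -0.01 and -0.30.

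Nfil3, which competes with the PAR-bZIP activators for D-box elements and also serves the development of natural killer (NK) and other innate lymphoid cells, was the 1 gene of the 9 with a lower level. Nfil3 (ENSMUSG00000056749, chromosome 13, 52967209 to 52981073, minus strand) had 944 control and 360 PM2.5 counts, or 16.3 and 5.79 CPM. This was 2.81-fold lower (2.49 to 3.19), and 229 (1.58%) of the genes tested had a lower ratio. Most NK and innate lymphoid cell markers lay the other way. Of 10 measured, 7 were higher at 1.5-fold and none lower, beside 14.9% and 19.1% of all genes tested. Another 3 reached neither, and 1 of the 10 had a ratio below equality. The summed level of the 10 was 72.7 CPM in the control and 143 CPM in the PM2.5 library. None of these markers was at 0 in either library, and their part in the level of Nfil3 was not tested.

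The balance between the activator and repressor transcripts of the D-box differed between the libraries. The ratio of Dbp to Nfil3 counts was 3.15 in the control and 21.6 in the PM2.5 library, an odds ratio of 6.86 (6.02 to 7.82). For Tef to Nfil3 it was 3.49 (3.08 to 3.96) and for Hlf to Nfil3 2.91 (2.53 to 3.35). Ratios to Nfil3 are widened by construction, since Nfil3 was lower in the PM2.5 library. These pairs share Nfil3, so they are not independent of one another. Hlf alone had a ratio of 1.03 (0.969 to 1.10), so its odds ratio mostly reflects Nfil3. Per length, in TPM (computed over the merged exons of each gene), Dbp, Tef and Hlf together held 103 TPM in the control and 164 TPM in the PM2.5 library, and Nfil3 15.4 and 5.45 TPM. The activator level per unit of Nfil3 was 6.65 and 30.1, and with the longest annotated transcript as length it was 11.2 and 50.4. Nfil3 made up 13.1% of the summed TPM of these 4 genes in the control, against 3.22% in the PM2.5 library.

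Nr1d1 (REV-ERB alpha) and Nr1d2 (REV-ERB beta), the haem-binding nuclear receptors, were both higher by similar ratios. Nr1d1 (ENSMUSG00000020889, chromosome 11, 98767932 to 98775333, minus strand) had 5331 counts in the control and 9352 in the PM2.5 library, or 92.0 and 150.3 CPM, a ratio of 1.64 (1.58 to 1.69). Nr1d2 (ENSMUSG00000021775, chromosome 14, 18204054 to 18239127, minus strand) had 5244 and 10122 counts, or 90.5 and 163 CPM, a ratio of 1.80 (1.74 to 1.86). In both genes the PM2.5 library held the higher level, and 1702 (11.7%) and 1314 (9.05%) of the genes tested had higher ratios. The count ratio of Nr1d1 to Nr1d2 was 1.02 in the control and 0.924 in the PM2.5 library, an odds ratio of 0.909 (0.867 to 0.953). The 3′ end of Nr1d1 overlaps the thyroid hormone receptor gene Thra on the opposite strand over 263 exonic bases (8.55%). Thra had 9081 and 5622 counts, and with the strand setting unknown it is not known how reads over those bases were counted.

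Ciart, which encodes a repressor of CLOCK and BMAL1, showed the highest ratio of the 9 genes on the lowest control level. Ciart (ENSMUSG00000038550, chromosome 3, 95878503 to 95882251, minus strand) had 173 counts in the control and 971 in the PM2.5 library, or 2.98 and 15.6 CPM. The ratio was 5.23 (4.45 to 6.19), and 171 (1.18%) of the genes tested had a higher one. No other annotated gene shares exonic bases with Ciart. Its mean of 9.30 CPM leaves it out where a mean of at least 10 CPM is asked for.

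The DEC genes, bHLH repressors that hypoxia and other stimuli also induce, were both higher, with Bhlhe41 ahead. Bhlhe40 (ENSMUSG00000030103, chromosome 6, 108660629 to 108666925, plus strand) had 2513 and 4038 counts, or 43.3 and 64.9 CPM, a ratio of 1.498 (1.42 to 1.57). Bhlhe41 (ENSMUSG00000030256, chromosome 6, 145858243 to 145865558, minus strand) had 930 and 2146 counts, or 16.0 and 34.5 CPM, a ratio of 2.15 (1.99 to 2.33). The lower bound for Bhlhe41 lies just under 2-fold. The ratio of Bhlhe40 to Bhlhe41 counts was 2.70 in the control and 1.88 in the PM2.5 library, an odds ratio of 0.696 (0.635 to 0.764). Bhlhe41 is also expressed in alveolar macrophages. Of 10 markers of those cells, 3 were higher at 1.5-fold and 1 lower, beside 14.9% and 19.1% of all genes tested. Their median log2 ratio was 0.12, with summed levels of 829.6 and 897 CPM and none at 0. The higher ones include a gene that is also among the fat markers below, so the list is not specific to these cells. The part of these markers in the level of Bhlhe41 was not tested. Annotated genes on the opposite strand overlap 19.0% of the exonic length of Bhlhe41 and 2.51% of that of Bhlhe40, and 2.45% of that of Tef.

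**Figure D2:**
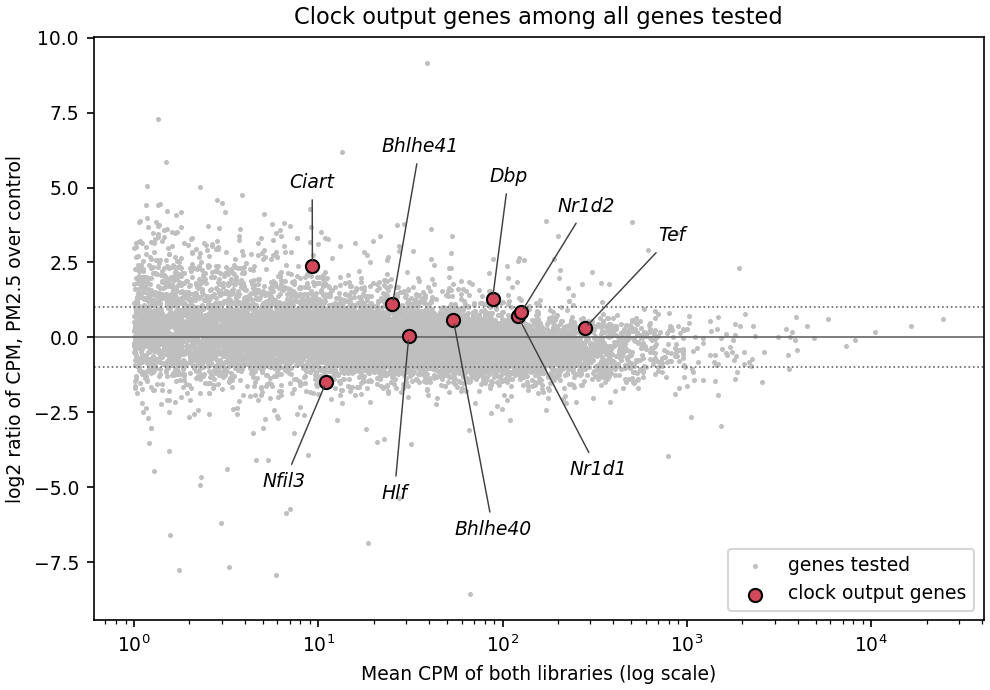
log2 ratio of CPM (PM2.5 over control) against mean CPM of both libraries (log axis) for 14518 genes tested in grey and the 9 clock output genes in red, with dotted lines at 2-fold. Ciart, Dbp and Bhlhe41 lie above the upper dotted line and Nfil3 below the lower one, while Hlf and Tef lie within the bulk of the genes.

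The order of the levels also differed. Per length, Tef (60.9 TPM) and Nr1d1 (57.3 TPM) led in the control library, followed by Dbp at 32.9, Nr1d2 at 32.1, Bhlhe40 at 17.7, Nfil3 at 15.4, Hlf at 8.75, Bhlhe41 at 4.58 and Ciart at 2.53 TPM. In the PM2.5 library Nr1d1 led at 93.1 TPM, before Dbp at 79.7, Tef at 75.1, Nr1d2 at 57.3, Bhlhe40 at 26.3, Ciart at 13.2, Bhlhe41 at 9.79, Hlf at 8.995 and Nfil3 at 5.45 TPM. Nfil3 went from the sixth place to the last, and Ciart from the last to the sixth. With 1 library per group there is no spread against which neighbours in this order could be set, and the order of Tef, Nr1d1 and Dbp in the PM2.5 library depends on the length used. With the longest transcript it was Tef at 116, Dbp at 112 and Nr1d1 at 90.8 TPM. All 9 genes together held 232 TPM in the control and 369 TPM in the PM2.5 library.

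Promoter sequences from RefSeq (GRCm38.p6, 250 bases before to 50 after each transcription start) were matched by symbol for 8 of the 9 genes, all but Bhlhe40, with 2 starts for Tef. They are shown because these genes are known to be driven through short elements, and the windows were searched on both strands for the E-box CACGTG, its variant CACGTT, the D-box as TTATGTAA or TTACGTAA, the core of the ROR element as TAGGTCA or TGGGTCA, and the CRE as TGACGTCA. The E-box was found in the windows of Ciart, Bhlhe41 and both starts of Tef, against 7.15% of 32851 promoters of the same length. The window of Ciart, the gene with the highest ratio, held 3 E-boxes, beginning 116, 58 and 44 bases before the start, and 29 of the 32851 promoters (0.0883%) held that many or more. Below, capitals mark the E-boxes, and each of these 3 stretches is printed 5′ to 3′ on the strand of the gene, without bases that lie in an annotated exon. The stretches are chr3:95882252-95882478 (Ciart, minus strand), chr6:145865559-145865670 (Bhlhe41, minus strand) and chr15:81811164-81811413 (Tef, second start, plus strand).
Ciart: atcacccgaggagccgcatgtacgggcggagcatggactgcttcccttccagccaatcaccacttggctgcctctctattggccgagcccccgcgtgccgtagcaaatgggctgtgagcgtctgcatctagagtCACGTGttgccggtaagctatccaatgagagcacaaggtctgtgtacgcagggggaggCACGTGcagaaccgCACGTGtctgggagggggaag
Bhlhe41: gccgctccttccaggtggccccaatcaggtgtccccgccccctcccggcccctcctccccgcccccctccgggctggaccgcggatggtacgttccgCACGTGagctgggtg
Tef: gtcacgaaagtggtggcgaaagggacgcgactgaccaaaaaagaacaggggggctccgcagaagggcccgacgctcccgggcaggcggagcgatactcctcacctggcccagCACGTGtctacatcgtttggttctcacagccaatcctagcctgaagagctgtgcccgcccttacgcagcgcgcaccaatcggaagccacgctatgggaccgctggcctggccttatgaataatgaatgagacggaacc

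Nfil3, the gene with a lower level, had no E-box in its window but the core of the ROR element, found in 6.45% of promoters. It lies on the strand opposite to the gene, beginning 12 bases before the RefSeq start and, since the GENCODE start lies further upstream, inside the first exon of that annotation. In the 27 exonic bases at chr13:52981035-52981061 (minus strand), capitals mark that core as read on the strand of the gene.
Nfil3: cgctcggaacTGACCTActaacacaca

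Among the other windows, that of Nr1d1 held the E-box variant (4.68% of promoters), and that of Hlf the CRE (1.79%), beginning 9 bases before the start. No D-box, which 1.06% of promoters held, was matched in any of the windows, and those of Dbp and Nr1d2 held none of the motifs searched. The E-box and the CRE read the same on both strands, and no matches overlapped one another. A match describes the letters of a window only, and elements outside 300 bases were not searched.

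**Figure D3:**
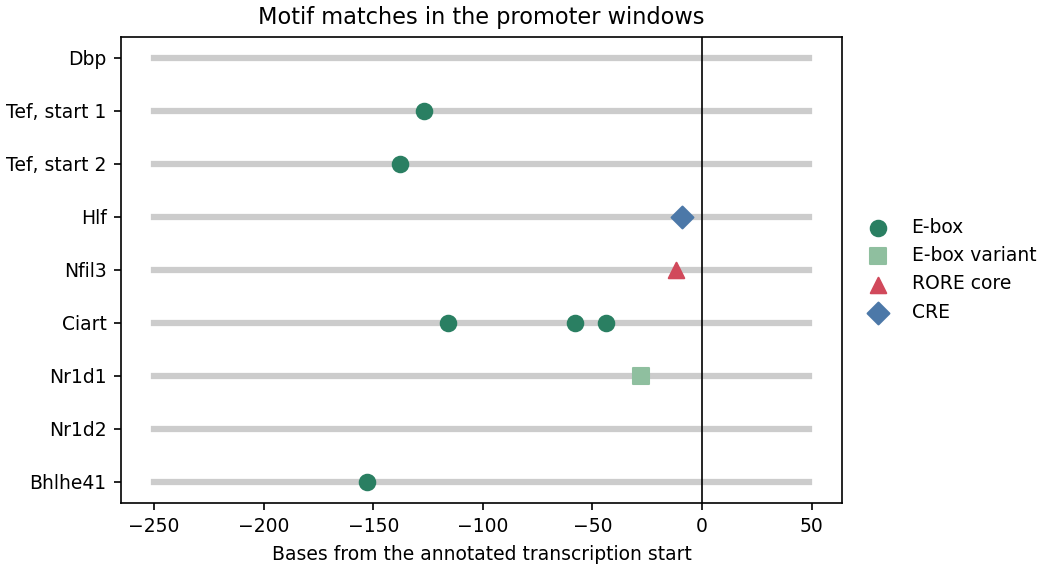
Position of each motif match, as the distance in bases of its first base from the annotated transcription start, in the 9 promoter windows (grey bars, 250 bases before to 50 after the start). Ciart carries 3 E-boxes, Bhlhe41 and both starts of Tef 1 each, and Nfil3 alone the core of the ROR element.

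The core clock loop, whose products drive and repress the genes above, went both ways. Of 17 genes tested, 3 were higher at 1.5-fold, 8 lower and 6 neither, beside 14.9% higher and 19.1% lower of all genes tested. The median log2 ratio of the loop was -0.58. The activator side was low in the PM2.5 library. Arntl, the gene of BMAL1, had 1803 and 662 counts and was 2.92-fold lower (2.67 to 3.199), Npas2, the paralogue of Clock, had 607 and 100 counts and was 6.51-fold lower (5.26 to 8.13), and Clock itself was 1.72-fold lower. Arntl2, a paralogue of Arntl, was the exception at 18.5-fold higher (9.55 to 41.2), but it rested on 9 and 179 counts and lay below 1 CPM in the control library.

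The repressor genes of the loop were split. Per3 was 2.75-fold higher (2.61 to 2.90), with 1828 and 5399 counts, and Per2 1.60-fold higher, whereas Per1 was 1.62-fold lower and Cry1 2.72-fold lower, with 1646 and 649 counts. Cry2 had a ratio of 0.811. Rora, whose product activates through the elements that the REV-ERB receptors repress, was 1.62-fold lower, and its relative Rorb, below 1 CPM, had 22 and 5 counts. Of the kinases that mark PER proteins for breakdown, Csnk1d was 1.60-fold lower and Csnk1e had a ratio of 0.841. The ubiquitin ligase genes Fbxw11, Btrc and Fbxl21 had ratios of 0.667, 0.848 and 0.992, none of which reached 1.5-fold. The count of 8 lower genes became 3 when scaled by library totals and 4 by the upper quartile, and Arntl, Npas2 and Cry1 were 2-fold lower or more under the scaling used here.

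Dbp, Nr1d1 and Ciart were also set against Arntl within each library, which widens their ratios by construction, since Arntl was lower in the PM2.5 library. The count ratio of Dbp to Arntl was 1.65 in the control and 11.8 in the PM2.5 library, an odds ratio of 7.12 (6.45 to 7.87). For Nr1d1 to Arntl the count ratios were 2.96 and 14.1, and the odds ratio was 4.78 (4.34 to 5.26). For Ciart to Arntl the odds ratio was 15.3 (12.7 to 18.5), with count ratios of 0.0960 and 1.47. These pairs share Arntl, so they are not independent of one another.

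**Figure D4:**
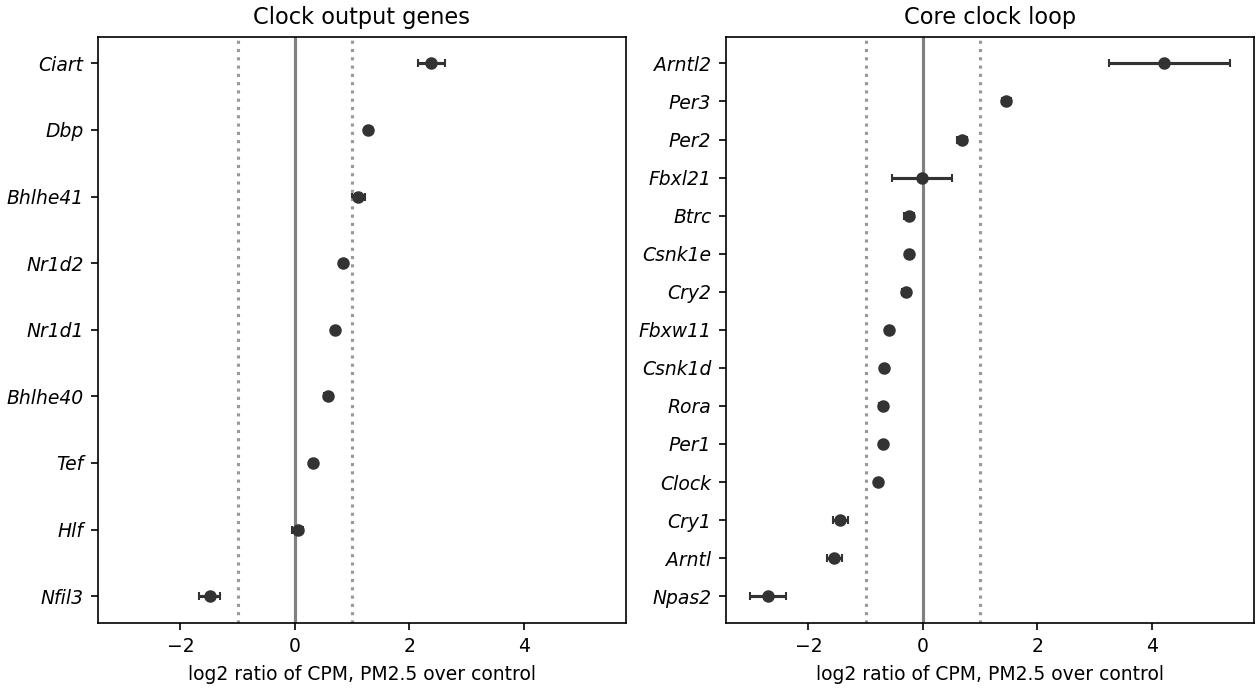
log2 ratio of CPM (PM2.5 over control) with 95% counting intervals as bars, for the 9 clock output genes and for 15 genes of the core clock loop, with dotted lines at 2-fold and each panel ordered by ratio. Nfil3 is the lowest of the output genes, and Npas2, Arntl and Cry1 are the lowest of the loop, opposite to Ciart, Dbp, Per3 and Arntl2.

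Genes reported to be repressed by the REV-ERB receptors were more often lower than higher. Of 14 tested, 3 were higher at 1.5-fold and 9 lower, beside 14.9% and 19.1% of all genes tested. The median log2 ratio of the list was -0.71. The list shares Nfil3 with the genes above and several genes, among them Arntl, Npas2, Clock and Cry1, with the core loop, so it is no separate set of genes. Outside the core loop, Cdkn1a, the gene of the cell cycle inhibitor p21, was 2.88-fold lower, and it is counted again among other clock-controlled genes below. Ccl2, a monocyte chemokine, was 4.004-fold higher on 27 and 116 counts and also below 1 CPM in the control library. The count of 9 lower genes was 5 with library totals, where 3 were still higher. Genes of the REV-ERB co-repressor complex and of receptor turnover were called in 4 of 11 cases, all lower, with a median of -0.43. Of all genes tested, 19.1% were lower by the same rule. Among them, the kinase gene Gsk3b was 1.67-fold lower, the co-repressor gene Ncor1 1.60-fold and the ubiquitin ligase gene Siah2 1.52-fold. With the median of genes of similar exonic length subtracted, their log2 ratios were -0.35, -0.28 and -0.59. Of these named genes, Siah2 alone then stayed at 1.5-fold. Of the 11 genes, 2 were called lower with the upper quartile and 1, which is not named here, with library totals.

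Genes reported to depend on the PAR-bZIP activators in liver or brain had a median log2 ratio of -0.02, which turned positive with library totals (0.21), the upper quartile (0.12) and the thinned control library (0.03). Of 7 tested, 2 were higher at 1.5-fold and none lower. Over all genes tested these shares were 14.9% and 19.1%, here and for the next list. Cyp2a5, a cytochrome P450 gene, was 5.27-fold higher and the glutathione transferase gene Gsta3 1.53-fold, while Por, Alas1 and Pdxk had ratios of 0.822, 1.12 and 0.777. Among other genes under clock control, 3 of 7 were lower and none higher, with a median of -0.35. They were Cdkn1a and the glucocorticoid-induced genes Tsc22d3 and Fkbp5, 2.12-fold and 2.06-fold lower. The clock output gene Usp2, a ubiquitin protease, had a ratio of 0.937 (0.842 to 1.04), within counting error of equality.

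Relatives of the 9 genes went both ways. At 1.5-fold, 14.9% of all genes tested were higher and 19.1% lower. Of 5 C/EBP family genes tested, Ddit3 was higher at 1.57-fold and Cebpd and Cebpb lower at 1.74-fold and 1.52-fold. Their median of -0.18 turned to 0.05 with library totals, where neither was called lower. Of 5 genes of the Hes and Hey group, bHLH repressors of the Notch pathway related to Bhlhe40 and Bhlhe41, none reached 1.5-fold higher, with ratios of 1.33 for Hes1, 1.09 for Hes6 and 1.07 for Hey2, and Heyl and Hey1 were 3.18-fold and 1.84-fold lower. The median of that group was 0.10. Whether these lists differ from the 9 genes was not tested.

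**Figure D5:**
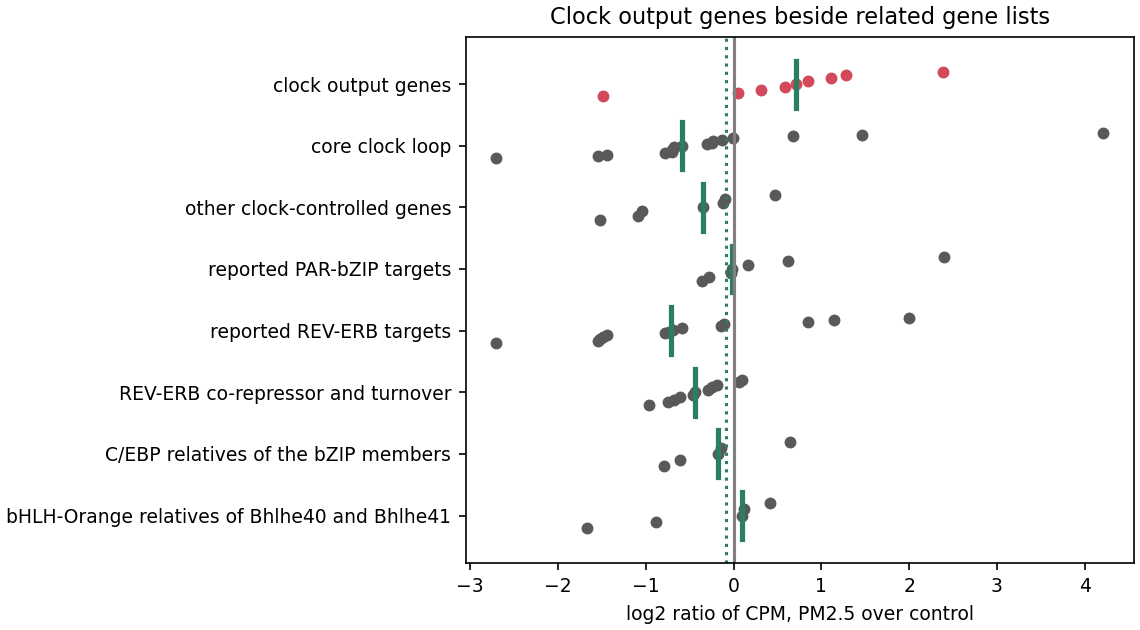
log2 ratio of CPM (PM2.5 over control) of each gene tested in the 9 clock output genes (red) and in 7 related lists (grey), with a green bar at each median and a dotted green line at the median of all genes tested, -0.09. Apart from Nfil3 the output genes lie at or above 0, whereas most genes of the core loop and of the REV-ERB target list lie below it.

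The libraries also differed in their cell type markers. Markers are counted at 1.5-fold, where 14.9% of all genes tested were higher and 19.1% lower. Lung epithelium markers were present at high levels, 45401 and 58949.6 CPM in all, led by Scgb1a1 and Sftpc, with 2 of 10 higher and none lower. Endothelial markers, led by Cdh5 and Pecam1, summed to 6099 and 2904 CPM, with 6 of 8 lower. Fat markers, led by Pnpla2 and Car3, summed to 396 and 966 CPM, with 10 of 12 higher and 2, Pnpla2 itself and Lipe, lower. Pnpla2 held 201 and 122 CPM of these sums and Lipe 61.4 and 38.4 CPM. The sums therefore understate the other fat markers, and the median log2 ratio of the list was 2.60. Neutrophil markers, led by S100a9 and S100a8, summed to 499 and 1641 CPM, with 10 of 10 higher. Red blood cell markers, led by Hbb-bs and Hba-a1, summed to 5816 and 2700.5 CPM, with 6 of 7 tested lower and Hba-a2 3.14-fold higher. Hba-a2 and Hba-a1 are near-identical copies, and the counting can split their reads. Muscle markers, led by Myh6 and Tnnt2, had 5 of 8 tested higher and 1, Myh6 itself, 2.61-fold lower. Their sums were 246 and 223 CPM, and without Myh6 81.9 and 160.2 CPM. No marker of these lists was at 0 in either library. In bulk tissue, fewer cells of a type and less RNA per cell cannot be told apart, and the part of these markers in the levels of the clock genes was not tested.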

How the data were processed

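Lung mRNA was sequenced as 1 control and 1 PM2.5 library. Per the labels' protocols, stranded KAPA libraries were read in pairs of 125 bp, and TopHat2 2.1.1, HTSeq 0.6.0 and mm10 appear in the submitters' processing notes. Which annotation release and which strand setting of the counting were used is not given in the sources used here. Values as deposited are raw counts of reads for each Ensembl gene, not normalized. Symbols (found for 35533 of 37315 identifiers), positions and lengths came from GENCODE M21 on GRCm38, the assembly called mm10.

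Libraries were scaled with TMM in edgeR 4.0.16 (factors 0.923 and 1.08). The ratio of CPM carries an exact 95% Clopper-Pearson interval on the PM2.5 share of both counts, and ratios between genes an exact conditional one. Reads are not independent molecules, so intervals cover counting error only. Genes at 0 in 1 library were set against 3 counts, 0.0517 CPM (control) or 0.0482 CPM (PM2.5). Size was assessed for genes whose mean level was 1 CPM or above.

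Members and lists were chosen with earlier results of these data known. All 9 members and the core loop were named, apart from some listed genes that are counted but not reported here by name. From other lists, with the same exception, up to 4 called genes of largest change were named, or the most abundant gene where fewer than 2 were called. From marker lists the 2 most abundant were named. Usp2, Por, Alas1, Pdxk, Hes1, Hes6, Hey2, Lipe and Hba-a2 were named after their values were seen. Alternatives were library totals, size factors of DESeq2 1.42.0, the upper quartile, TMM without the 100 most abundant genes, thinning the control library, other filters and sizes, and the longest transcript as length. Steps were tested on simulated data. Python 3.11.15, scipy 1.17.1 and R 4.3.3 were used.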

Additional observations from a re-analysis of the deposited data

How the results depend on the processing

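With 1 library per group no replicate could be left out, and no paired analysis was possible because each group holds a single library. The log2 ratios of the 9 genes kept their direction in all of 54 recomputations. The shifts were small or mostly upward, so the 8 higher genes could hardly have reversed, and the kept directions say little. For Hlf the interval under the scaling used here (-0.04 to 0.14) included 0, so it had no clear direction to keep. Library totals and the upper quartile raised the log2 ratio of every gene, and the median over all genes tested, -0.09, became 0.14 and 0.05. With library totals the log2 ratios were 1.52 (Dbp), 0.54 (Tef), 0.28 (Hlf), -1.26 (Nfil3), 0.94 (Nr1d1), 1.08 (Nr1d2), 0.81 (Bhlhe40) and 1.33 (Bhlhe41), so that Nr1d2 passed 2-fold and the interval of Hlf (0.19 to 0.37) excluded 0. With the upper quartile they were 1.42 (Dbp), 0.45 (Tef), 0.19 (Hlf), 0.85 (Nr1d1), 0.99 (Nr1d2), 0.72 (Bhlhe40) and 1.24 (Bhlhe41). With the median of genes of similar exonic length subtracted, an alternative chosen after seeing the data, they were 0.61 (Tef), 0.29 (Hlf), 0.79 (Nr1d1), 1.04 (Nr1d2), 0.73 (Bhlhe40) and 1.35 (Bhlhe41). That median was 0.34 in the tenth of genes with the shortest exonic length and -0.39 in the tenth with the longest. Clock thereby went from -0.78 to -0.39, Rora from -0.70 to -0.31 and Ncor1 from -0.67 to -0.28. Arntl, Npas2 and Cry1 stood at -1.25, -2.55 and -1.37 after it. DESeq2 size factors, TMM without the most abundant genes and the thinned library moved none of the 9 beyond its counting interval. At 2-fold, 3 genes were higher; 4 were with library totals, 2 with a mean of at least 10 CPM or with the interval bound beyond 2-fold, and 5 at 1.5-fold. Nfil3 was called lower throughout. The activator level per unit of Nfil3 was 11.2 (control) and 50.4 (PM2.5) with the longest transcript as length. Over all genes, 1053 were higher and 877 lower; the counts were 1541 and 444 by library totals, 1297 and 578 by the upper quartile, 3106 and 1155 without a filter, 310 and 630 at 10 CPM, and 2163 and 2776 at 1.5-fold. By construction, the scalings shift all ratios alike, and the filters and sizes change which genes can be called.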
